A study of Saccharomyces cerevisiae with 24 samples.

Results

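The cytosolic heat shock chaperones of budding yeast were examined as a set of 10 genes, taken from the deposited tables by their standard names. They were HSP82, HSC82, SSA1, SSA2, SSA4, HSP104, HSP26, HSP42, SIS1 and CUR1. These are 10 of the 7126 genes in the count table, and all 10 were among the 6089 genes that passed the filter on low counts. PolyA RNA was sequenced from haploid cells in 24 libraries, 3 for each of 8 groups. Every group was of the BY4741 background with mating type MATa and carried his3delta1, ura3delta0, leu2delta0, lys2delta0, crz1delta::LEU2 and a HYG-TEFp-GFP(Y66F) cassette on chromosome VI. The 4 crz1 groups carried no further deletion, and the 4 crz1 cnb1 groups also carried cnb1delta::KanMx. Crz1 is the transcription factor that calcineurin activates, and Cnb1 is the subunit that regulates this calcium-dependent phosphatase. All groups, controls included, therefore lacked Crz1, and a strain with CRZ1 was not analysed here. Cells grew in a synthetic medium whose nitrogen source was ammonium chloride, and 1 group of each strain was taken untreated (0 h). The others were taken after 12, 48 and 72 h in 200 mM CaCl2, with a dilution every 12 h that kept growth logarithmic. No untreated library was taken at 12, 48 or 72 h, so an effect of CaCl2 cannot be told apart from one of time in culture or of repeated dilution. The time courses were run in triplicate per the labels, which do not say whether a strain was 1 clone.

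Heat shock chaperones bind unfolded proteins and refold them, pull them out of aggregates or hand them on for destruction. In yeast the transcription factor Hsf1 drives most of their genes through heat shock elements in the promoters, and Msn2 and Msn4 act on some of them through stress response elements. Hsp90 matures client proteins such as kinases, and calcineurin is itself known as an Hsp90 client. Hsp70 works with J proteins such as Sis1, the disaggregase Hsp104 works with Hsp70, and the small heat shock proteins hold unfolding proteins in loose assemblies. Cur1 and its paralog Btn2 are sorting factors that steer misfolded proteins to deposit sites.

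Library totals lay between 21582317 and 22016465 counts. The deletions were as labelled, with CRZ1 at 0 to 4 counts in every library. CNB1 had 1581 to 3043 counts in crz1 libraries, against 3 to 22 in the crz1 cnb1 libraries. Mating type markers were read in CPM (counts scaled to 1e6 per library). The MATa gene STE2 had 331 to 1332 CPM, and MFA1, MFA2, STE6, AGA2 and BAR1 had at least 18.1 CPM. Of the other mating type, MF(ALPHA)1 reached at most 1.47 CPM and MF(ALPHA)2 1.01 CPM. Not all markers separated so clearly. SAG1 and STE3, also of the other type, had 17.6 to 40.6 and 0.459 to 13.7 CPM, and the MATa gene ASG7 had 1.93 to 23.5 CPM. Replicate 1 of crz1 at 0 h, of crz1 cnb1 at 0 h and of crz1 at 48 h stood apart from the other libraries of their groups on the first principal component, which held 39.7% of the variance. Results are given below with all 24 libraries and, where a call or count changed, also without these 3, a comparison chosen after seeing the data. Bulk RNA gives levels relative to all RNA of a culture, so fewer cells with a transcript and less of it per cell cannot be told apart.

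The heat shock elements of 5 members are shown because this element, the site that Hsf1 is known to bind, was found for a larger share of the members than of all genes, although not for every member. The 500 bases before each start codon were searched on both strands in the RefSeq genome, build R64, for a 3-unit element spelled GAANNTTCNNGAA or TTCNNGAANNTTC. It was found for 5 of 10 members, against 1.48% of the 6000 genes searched, and HSP82, HSC82, SSA4, HSP26 and CUR1 held none in this window. Each is printed 5′ to 3′ on the strand of its gene, with the bases of all overlapping matches in capitals.
SSA1, chrI:141670-141702 (-): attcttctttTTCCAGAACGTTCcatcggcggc
SSA2, chrXII:97696-97728 (-): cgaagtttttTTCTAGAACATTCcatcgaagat
HSP104, chrXII:88316-88348 (+): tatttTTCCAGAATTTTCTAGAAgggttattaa
HSP42, chrIV:806373-806405 (+): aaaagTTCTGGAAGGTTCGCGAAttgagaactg
SIS1, chrXIV:619877-619909 (-): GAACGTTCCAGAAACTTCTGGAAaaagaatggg
The matches nearest to the start codon lay 220 bases from it in SSA2, 225 in HSP42, 248 in SSA1, 284 in HSP104 and 321 in SIS1. A 2-unit element, GAANNTTC or TTCNNGAA, which every 3-unit match contains, was found for 10 of 10 members and for 35.2% of all genes. The stress response element AGGGG, or CCCCT on the other strand, was found for 6 of 10 members and 34.1% of all genes. HSC82, SSA2, SIS1 and CUR1 held none in this window. A match is a string of letters and not a measured binding site. The 5 genes with a 3-unit match did not move as a unit: at 72 h in crz1 SSA1 rose, SIS1 and HSP42 fell, and SSA2 and HSP104 did not pass the test.

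Close paralogs limit what can be read from HSP82, HSC82, SSA1 and SSA2. Over their coding sequences HSP82 (YPL240C) and HSC82 (YMR186W) were 92.43% identical, with 113 bases in the longest identical run. SSA1 (YAL005C) and SSA2 (YLL024C) were 96.82% identical, with a run of 383 bases. SSA4 (YER103W) was 75.38% identical to SSA1 and 75.22% identical to SSA2, and it shared no stretch of 50 bases with either. Of all stretches of 100 bases, 45.8% of those in SSA1 also occurred in SSA2, against 0.689% of those in HSP82 that occurred in HSC82. The first 60 coding bases of each gene are shown as an example of the bases that tell a pair apart, which are in capitals.
HSP82, chrXVI:98566-98625 (-): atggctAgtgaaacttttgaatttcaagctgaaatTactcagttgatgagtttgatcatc
HSC82, chrXIII:632355-632414 (+): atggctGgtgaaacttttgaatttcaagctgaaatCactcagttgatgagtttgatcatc
SSA1, chrI:141372-141431 (-): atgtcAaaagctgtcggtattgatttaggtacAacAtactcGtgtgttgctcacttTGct
SSA2, chrXII:97426-97485 (-): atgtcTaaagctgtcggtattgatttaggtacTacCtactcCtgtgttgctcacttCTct
The HSP82 and HSC82 stretches differ at 2 of 60 bases and the SSA1 and SSA2 stretches at 6 of 60, so the order of the pairs in this window is the reverse of that over the whole coding sequences. How reads that fit both genes of a pair were counted is not given in the sources used here, so values of single genes within these pairs are uncertain. The pairs were therefore also summed and refitted, and those values follow below.

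Levels between genes were compared in TPM, a share of all transcripts that accounts for gene length and that the authors deposited. In untreated crz1 cells the constitutive Hsp70 gene SSA2 was highest at 712 ± 142 TPM (SD, n = 3). The constitutive Hsp90 gene HSC82 followed at 490 ± 97.4 TPM. SSA1, the close paralog of SSA2, had 273 ± 30.3 TPM, and SIS1, the J protein that recruits Hsp70, had 170 ± 24.5 TPM. No library of these 4 genes overlapped its neighbour in the order. HSP42, HSP104, HSP82 and CUR1 came next at 71.7 ± 49.7, 62.2 ± 29.0, 48.6 ± 8.01 and 45.9 ± 7.95 TPM, and their libraries overlapped. The stress-induced Hsp70 gene SSA4 had 11.3 ± 0.599 TPM, and the small heat shock gene HSP26 had 8.83 ± 1.48 TPM. Summed over the 10 genes, crz1 had 1893 ± 179 TPM at 0 h, 1429 ± 256 at 12 h, 1098 ± 780 at 48 h and 1863 ± 152 at 72 h. The same sum in crz1 cnb1 was 1829 ± 246, 2435 ± 68.2, 1652 ± 371 and 2219 ± 183 TPM. In crz1 at 48 h the 3 libraries had 1999, 671 and 624 TPM, so replicate 1 lay within the 0 h range (1692 to 2033). On the log2(TPM + 1) scale the median change of all genes in crz1 was also -0.16 at 12 h and -0.25 at 48 h.

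**Figure D1:**
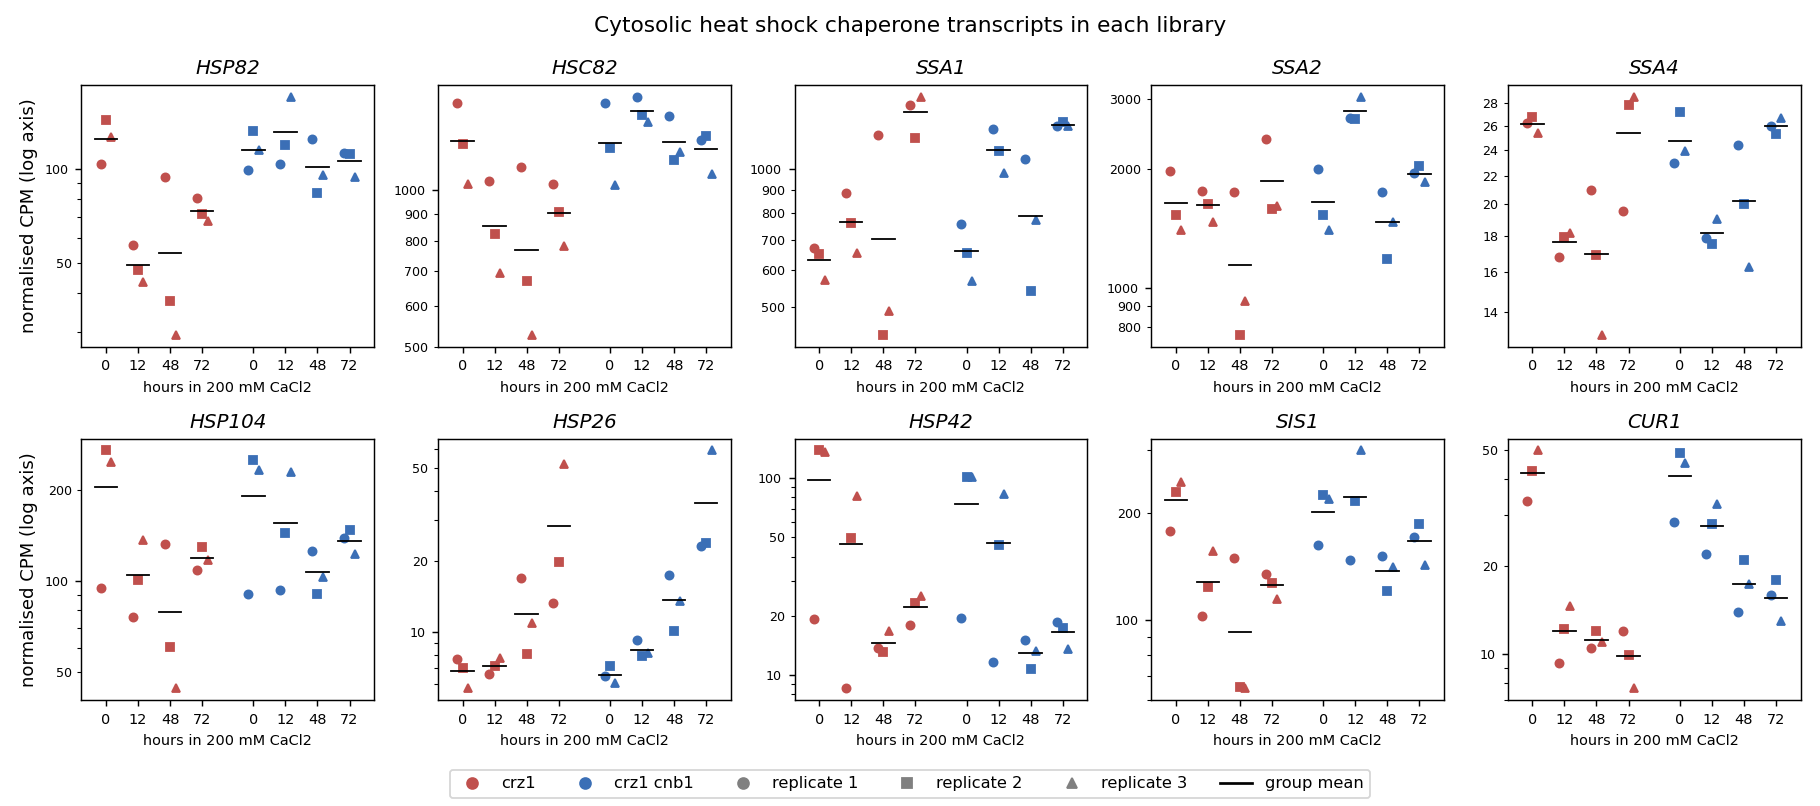
Normalised CPM (log axis) of each of the 10 chaperone genes in each of the 24 libraries, by hours in 200 mM CaCl2, with crz1 in red and crz1 cnb1 in blue; marker shapes are replicates and lines are group means. CUR1 is lower in every crz1 library at 12, 48 and 72 h than in any at 0 h, HSP26 is highest at 72 h in both strains, and replicate 1 of HSP42 and HSP104 lies far below replicates 2 and 3 at 0 h.

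Within crz1, the chaperone transcripts that changed by 12 and 48 h in CaCl2 were lower than at 0 h, and the picture was mixed at 72 h. A gene was called where its edgeR quasi-likelihood test gave a Benjamini-Hochberg adjusted p below 0.05 over all 6089 genes, and all adjusted p-values below are from that test unless another tool is named. At 12 h 4 of 10 members were lower (HSP82, SSA4, SIS1 and CUR1) and none was higher, where 14.4% of all genes were lower and 17.6% higher. At 48 h 7 of 10 were lower (HSP82, HSC82, SSA4, HSP104, HSP42, SIS1 and CUR1), against 13.7% of all genes lower and 19.8% higher. At 72 h SSA1 and HSP26 were higher, and HSP82, HSP42, SIS1 and CUR1 were lower, where 22.6% of all genes were higher and 19.8% lower. The median log2 change of the 10 members was -0.66, -0.95 and -0.61 at 12, 48 and 72 h, and that of all genes 0.00, 0.07 and -0.03. Without the 3 libraries that stood apart, 5, 8 and 7 members were called at the 3 times, where 39.6, 45.8 and 49.8% of all genes were called in either direction. HSP104 joined at 12 h (log2 change -1.31, adjusted p = 0.00127), SSA2 at 48 h (-0.86, 0.00114) and HSP104 at 72 h (-1.13, 0.00282). Fitting only the 6 libraries compared left 2 of the 7 calls at 48 h, HSP42 and CUR1, where 4.28% of all genes were then lower, and ended the HSP42 call at 72 h (adjusted p = 0.0848). The comparisons at 12, 48 and 72 h share the 0 h libraries.

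Within crz1 cnb1 fewer members passed the test. At 12 h SSA2 was higher, where 12.9% of all genes were higher and 7.67% lower. At 48 h HSP42 and CUR1 were lower, where 9.54% of all genes were lower and 14.3% higher. At 72 h SSA1 and HSP26 were higher and HSP42 and CUR1 lower, as in crz1, where 20.1% of all genes were higher and 15.7% lower. The members' median log2 change was 0.16, -0.24 and -0.08 at the 3 times, beside 0.00, 0.06 and 0.01 for all genes. Without the 3 libraries that stood apart, 4, 4 and 5 members were called, where 34.6, 33.9 and 47.5% of all genes were called in either direction. SSA1, SSA4 and CUR1 then joined at 12 h (log2 change 0.84, -0.50 and -0.78), HSP104 and SIS1 at 48 h (-1.22 and -0.73) and HSP104 at 72 h (-0.83).

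**Figure D2:**
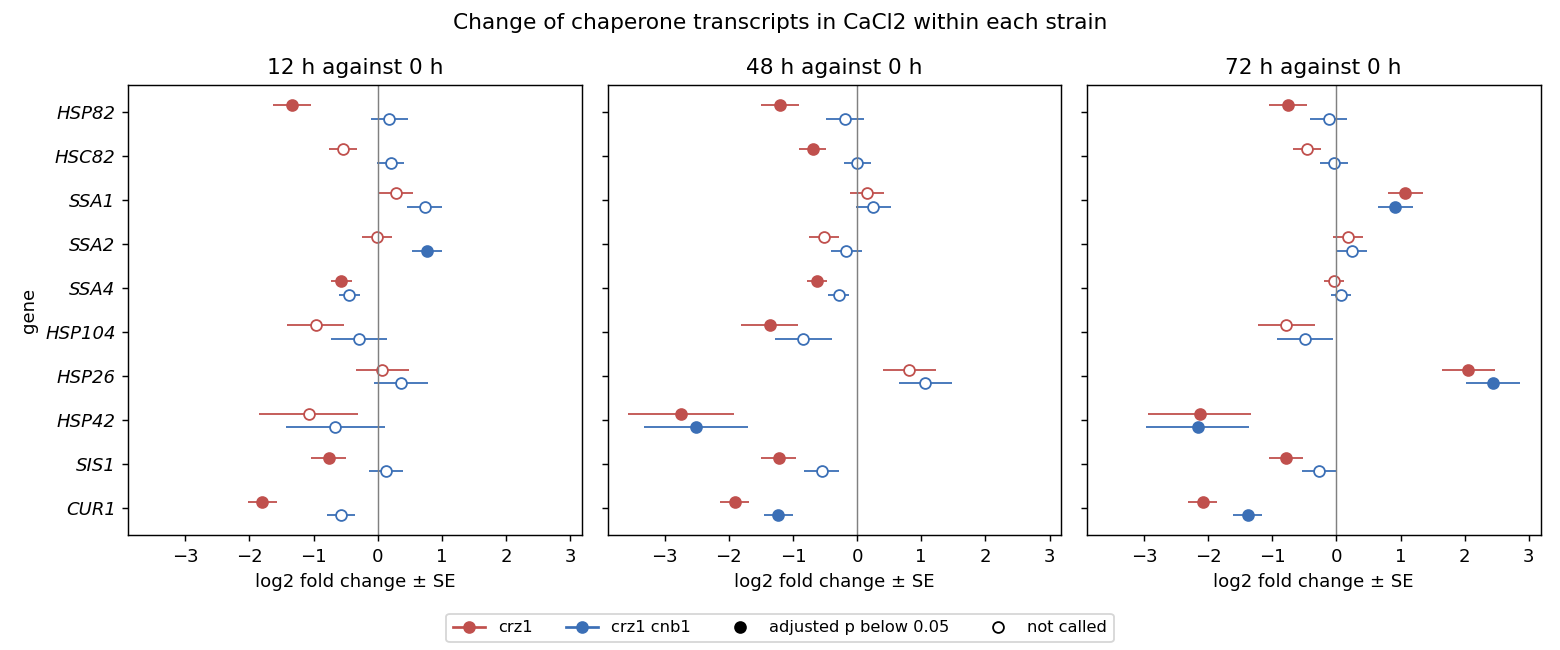
Log2 fold change from 0 h (horizontal axis, ± SE) of each chaperone gene at 12, 48 and 72 h, for crz1 in red and crz1 cnb1 in blue; filled points passed an adjusted p below 0.05. At 12 and 48 h the filled red points all lie left of 0, and at 72 h SSA1 and HSP26 lie right of 0 in both strains.

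Of the Hsp90 genes, HSP82, the heat-inducible one, had 103, 143 and 126 normalised CPM in the 3 crz1 libraries at 0 h. It had 57.0, 47.4 and 43.3 at 12 h, 94.2, 37.8 and 29.4 at 48 h, and 80.7, 71.4 and 67.9 at 72 h. Every treated crz1 library was thus below every untreated one, and replicate 1 at 48 h lay far above its group. HSP82 fell 2.52-fold at 12 h (log2 change -1.33 ± 0.30, adjusted p = 0.00185), 2.30-fold at 48 h (-1.20 ± 0.30, 0.00414) and 1.69-fold at 72 h (-0.76 ± 0.29, 0.0430). Without replicate 1 of crz1 at 48 h the change there was -1.88 (adjusted p = 2.08e-06). The call at 72 h was lost without replicate 2 or 3 at 0 h (adjusted p = 0.132 and 0.0881) or any 1 replicate at 72 h (0.0640, 0.0934 and 0.129), with no filter on low counts (0.0529) and with limma on log2(TPM + 1) (0.0749). In crz1 cnb1 HSP82 had 98.8, 131 and 115 normalised CPM at 0 h, 103, 119 and 170 at 12 h, 125, 83.2 and 95.1 at 48 h, and 112, 111 and 94.2 at 72 h. Those groups overlapped, and the log2 changes of 0.18 ± 0.29, -0.19 ± 0.29 and -0.12 ± 0.29 were not called.

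HSC82, the constitutive Hsp90 gene, had 1470, 1230 and 1027 normalised CPM in crz1 at 0 h and 1109, 668 and 527 at 48 h, and the groups overlapped through replicate 1. It fell 1.62-fold at 48 h (log2 change -0.69 ± 0.21, adjusted p = 0.0161). That call was lost without replicate 1 at 0 h (adjusted p = 0.0710) or replicate 2 or 3 at 48 h (0.0673 and 0.0900). At 12 h, with 1040, 825 and 693 normalised CPM, its log2 change was -0.54 ± 0.21 (adjusted p = 0.0561), just outside the threshold. It passed there with the replicate number as a block (adjusted p = 0.00360), and without replicate 3 at 0 h (0.0420) or replicate 1 at 12 h (0.0276). At 72 h the log2 change was -0.46 ± 0.21 (adjusted p = 0.0872), and HSC82 was called lower there in 2 of 14 alternative settings. In crz1 cnb1 the log2 changes of HSC82 were 0.20 ± 0.21, 0.01 ± 0.21 and -0.04 ± 0.21, none of them called. Summed as a pair, HSP82 and HSC82 fell in crz1 at 12 h (log2 change -0.60 ± 0.21, adjusted p = 0.0345) and 48 h (-0.73 ± 0.21, 0.0110), and missed the threshold at 72 h (-0.48 ± 0.21, 0.0702).

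The Hsp70 genes went other ways. SSA1 had 672, 652 and 571 normalised CPM in crz1 at 0 h and 1380, 1169 and 1435 at 72 h. The crz1 cnb1 libraries had 757, 655 and 569 at 0 h and 1237, 1266 and 1236 at 72 h. In both strains every library at 72 h was above every one at 0 h. SSA1 rose 2.10-fold in crz1 (log2 change 1.07 ± 0.27, adjusted p = 0.00360) and 1.89-fold in crz1 cnb1 (0.92 ± 0.27, 0.0124). The second call was lost without replicate 3 of crz1 cnb1 at 0 h (adjusted p = 0.0614). At 12 h SSA1 changed by 0.28 ± 0.27 in crz1 and 0.73 ± 0.27 in crz1 cnb1 (log2, adjusted p = 0.457 and 0.0597), and at 48 h by 0.15 ± 0.27 and 0.26 ± 0.27, none called. At 48 h the crz1 libraries were the most spread, at 1185, 434 and 489 normalised CPM, and without the 3 libraries that stood apart the log2 change there was -0.47, not called.

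SSA2, the more abundant of the pair, rose at 12 h in crz1 cnb1. It had 2000, 1526 and 1404 normalised CPM there at 0 h and 2679, 2674 and 3032 at 12 h, with no overlap. The rise was 1.70-fold (log2 change 0.77 ± 0.24, adjusted p = 0.0260). It was lost without replicate 2 or 3 at 0 h (adjusted p = 0.0977 and 0.119) or without any 1 library at 12 h (0.0515, 0.0503 and 0.0875), and with limma on log2(TPM + 1) (0.116). In crz1 SSA2 had 1974, 1531 and 1402 normalised CPM at 0 h and 1755, 1633 and 1464 at 12 h, a log2 change of -0.02 ± 0.24. At 48 h in crz1 it had 1749, 763 and 926 (log2 change -0.51 ± 0.24, adjusted p = 0.0978), and without replicate 1 at 48 h it was called lower (-0.95, 0.000695). At 72 h its log2 changes were 0.18 ± 0.24 and 0.24 ± 0.24 in the 2 strains. Summed as a pair, SSA1 and SSA2 were called in crz1 cnb1 at 12 h (log2 change 0.76 ± 0.24, adjusted p = 0.0308) and not at 72 h in crz1 (0.49 ± 0.24, 0.105) or crz1 cnb1 (0.47 ± 0.24, 0.133).

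SSA4, the strongly heat-inducible Hsp70 gene, stayed low throughout, between 12.96 and 28.6 normalised CPM. In crz1 it had 26.2, 26.7 and 25.4 at 0 h, 16.8, 18.0 and 18.2 at 12 h, 21.0, 16.9 and 12.96 at 48 h, and 19.6, 27.8 and 28.6 at 72 h. The libraries at 12 and 48 h all lay below those at 0 h, and those at 72 h spread across them. SSA4 fell 1.48-fold at 12 h (log2 change -0.57 ± 0.16, adjusted p = 0.00940) and 1.54-fold at 48 h (-0.62 ± 0.16, 0.00515), and the value at 72 h was -0.04 ± 0.16. The crz1 cnb1 values were 22.9, 27.2 and 23.9 at 0 h and 17.9, 17.5 and 19.1 at 12 h (log2 change -0.44 ± 0.16, adjusted p = 0.0535), again with no overlap. The later crz1 cnb1 values were -0.29 ± 0.16 and 0.07 ± 0.16, not called.

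The share of 1 paralog within each pair was followed as well. HSP82 made up 9.26 ± 2.37% of the summed TPM of HSP82 and HSC82 in crz1 at 0 h, 5.47 ± 0.345% at 12 h, 6.12 ± 1.44% at 48 h and 7.49 ± 0.408% at 72 h (SD, n = 3). The crz1 libraries at 12 h (5.17 to 5.85%) lay below all those at 0 h (6.54 to 10.9%). Those at 48 h (5.26 to 7.78%) and 72 h (7.25 to 7.96%) overlapped the 0 h range. In crz1 cnb1 the HSP82 share was 8.69 ± 2.11, 8.40 ± 2.42, 7.45 ± 0.722 and 8.06 ± 0.103%, and the groups overlapped. SSA1 made up 28.0 ± 2.34% of the summed TPM of SSA1 and SSA2 in crz1 at 0 h, 32.0 ± 1.35% at 12 h, 37.0 ± 2.99% at 48 h and 42.0 ± 5.21% at 72 h. In crz1 cnb1 the SSA1 share was 28.7 ± 1.28, 28.2 ± 3.51, 34.4 ± 3.18 and 39.0 ± 0.877%. At 72 h both strains' libraries (36.6 to 47.0% and 38.3 to 40.0%) lay above all of their own at 0 h. These shares carry the same limit on shared reads as the single genes, and they were given no test.

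**Figure D3:**
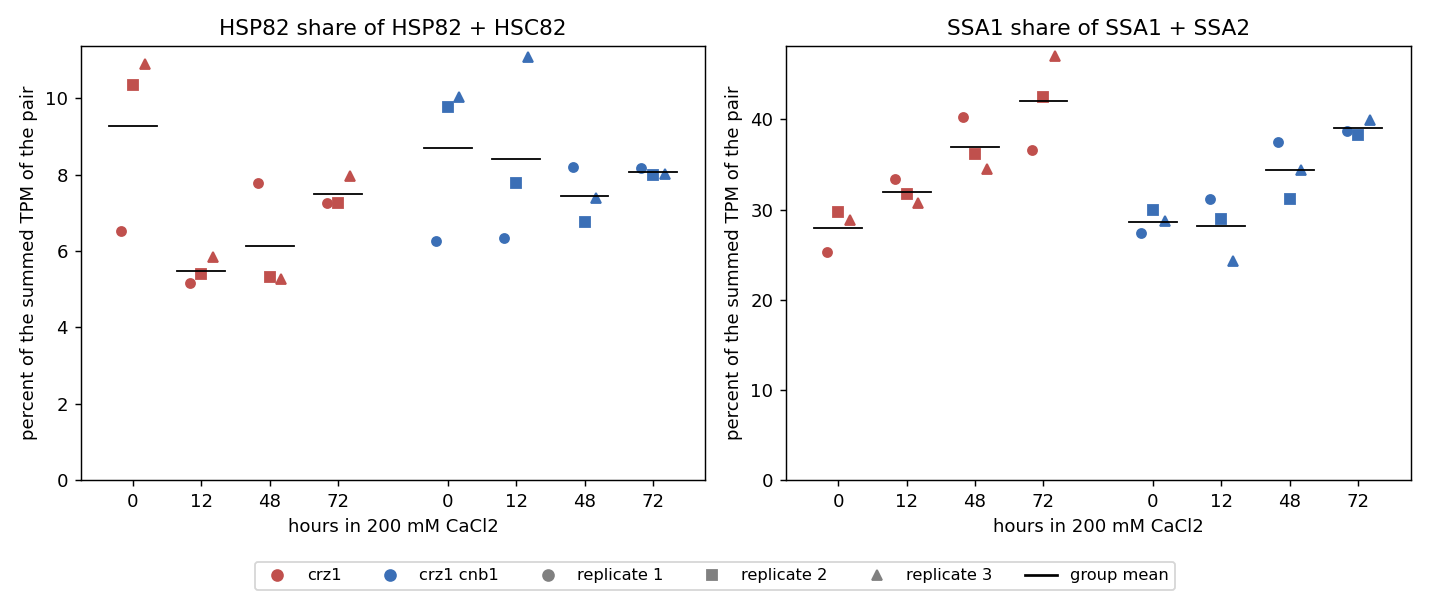
Share of HSP82 in the summed TPM of HSP82 and HSC82 (left) and of SSA1 in the summed TPM of SSA1 and SSA2 (right), in percent, by library; colours are strains, marker shapes replicates and lines group means. The HSP82 share is lowest in crz1 at 12 h, at 5.47%, and the SSA1 share is highest at 72 h in both strains, at 42.0 and 39.0%.

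HSP104, the disaggregase, had 94.5, 270 and 248 normalised CPM in crz1 at 0 h and 133, 60.6 and 44.2 at 48 h. Replicate 1 was the lowest library at 0 h and the highest at 48 h, and the groups overlapped through it. HSP104 fell 2.57-fold at 48 h (log2 change -1.36 ± 0.45, adjusted p = 0.0246). The call was lost without replicate 2 or 3 at 0 h (adjusted p = 0.107 and 0.0829) or at 48 h (0.0938 and 0.111). Without replicate 1 at 48 h the log2 change was -1.96 (adjusted p = 0.00348). At 12 and 72 h in crz1 the changes were -0.97 ± 0.44 and -0.78 ± 0.44, not called, and both were called without replicate 1 at 0 h (-1.31, adjusted p = 0.0265, and -1.12, 0.0426). In crz1 cnb1 HSP104 had 90.3, 250 and 232 at 0 h and 93.3, 144 and 229 at 12 h, and its log2 changes were -0.30 ± 0.44, -0.84 ± 0.44 and -0.49 ± 0.44, none called.

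The small heat shock genes moved in opposite directions. HSP26, whose product forms large holding assemblies, had 7.66, 7.04 and 5.74 normalised CPM in crz1 at 0 h, 6.62, 7.14 and 7.78 at 12 h, 16.9, 8.02 and 10.9 at 48 h, and 13.3, 19.9 and 51.9 at 72 h. The crz1 cnb1 libraries gave 6.47, 7.12 and 6.04 at 0 h, 9.21, 7.92 and 8.10 at 12 h, 17.4, 10.1 and 13.5 at 48 h, and 23.3, 24.02 and 59.3 at 72 h. All libraries at 72 h were above all at 0 and 12 h in both strains, and replicate 3 at 72 h stood far above the other two in each. HSP26 rose 4.16-fold from 0 to 72 h in crz1 (log2 change 2.06 ± 0.42, adjusted p = 0.000644) and 5.42-fold in crz1 cnb1 (2.44 ± 0.42, 0.000204). Without replicate 3 at 72 h the crz1 value was 1.28 (adjusted p = 0.00824). Its changes at 12 h (0.07 ± 0.42 and 0.36 ± 0.42) and 48 h (0.81 ± 0.41 and 1.06 ± 0.41) were not called in either strain. In 2 of 15 alternative settings HSP26 was called higher in crz1 cnb1 at 48 h.

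From 12 to 72 h HSP26 rose again in both strains. The log2 change was 1.98 ± 0.42 in crz1 (adjusted p = 0.0172), where 1.89% of all genes were called in either direction and HSP26 was the 1 member called. In crz1 cnb1 it was 2.08 ± 0.41 (adjusted p = 0.0104), and CUR1 fell there (-0.82 ± 0.22, 0.0389), which made 2 members called where 4.43% of all genes were. The crz1 call was lost without replicate 2 or 3 at 12 h (adjusted p = 0.0932 and 0.0843) or replicate 3 at 72 h (log2 change 1.22, adjusted p = 0.151), and when only these groups were fitted (0.187). For crz1 cnb1 HSP26 lost its call without replicate 3 at 12 h (adjusted p = 0.0859) or at 72 h (log2 change 1.49, adjusted p = 0.0523). The CUR1 call was lost without replicate 2 or 3 at 12 h (adjusted p = 0.0858 and 0.257) or without any 1 library at 72 h (0.121, 0.0880 and 0.137), and with limma on log2(TPM + 1) (0.0853).

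HSP42, the small heat shock gene active in unstressed cells, had 19.3, 138 and 135 normalised CPM in crz1 at 0 h, 8.58, 49.7 and 80.7 at 12 h, 13.7, 13.2 and 16.8 at 48 h, and 18.1, 23.4 and 25.3 at 72 h. The crz1 cnb1 libraries held 19.5, 101 and 102 at 0 h, 11.7, 46.0 and 83.2 at 12 h, 15.1, 10.7 and 13.3 at 48 h, and 18.7, 17.3 and 13.6 at 72 h. At 0 and 12 h replicate 1 of both strains lay far below replicates 2 and 3, and close to the libraries of the later times. HSP42 fell 6.70-fold in crz1 at 48 h (log2 change -2.74 ± 0.82, adjusted p = 0.0162) and 4.38-fold at 72 h (-2.13 ± 0.80, 0.0401). In crz1 cnb1 it fell 5.69-fold at 48 h (-2.51 ± 0.81, 0.0335) and 4.48-fold at 72 h (-2.16 ± 0.80, 0.0443). Only the crz1 call at 48 h survived the loss of some of the libraries taken at the later time: it ended without replicate 2 or 3 at 0 h (adjusted p = 0.0581 and 0.0539) or replicate 2 at 48 h (0.0527). The crz1 call at 72 h ended without replicate 2 or 3 at 0 h (0.119 and 0.114) or any 1 at 72 h (0.107, 0.0842 and 0.0841). The crz1 cnb1 calls ended in the same way at 48 h (0.0992 and 0.106, then 0.0835, 0.101 and 0.0913) and at 72 h (0.124 and 0.131, then 0.0939, 0.102 and 0.123). Limma on log2(TPM + 1) also ended the crz1 call at 72 h (0.0746) and both crz1 cnb1 calls (0.0576 and 0.0926), and the last of these ended with no filter on low counts as well (0.0545). At 12 h the changes of -1.08 ± 0.77 and -0.66 ± 0.77 were not called.

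SIS1, the essential J protein that partners Hsp70 and also restrains Hsf1, had 178, 228 and 243 normalised CPM in crz1 at 0 h. It had 103, 124 and 156 at 12 h, 149, 65.2 and 64.5 at 48 h, and 135, 127 and 114 at 72 h. Every treated crz1 library lay below every untreated one. SIS1 fell 1.70-fold at 12 h (log2 change -0.76 ± 0.27, adjusted p = 0.0368), 2.33-fold at 48 h (-1.22 ± 0.27, 0.00208) and 1.72-fold at 72 h (-0.79 ± 0.27, 0.0242). The call at 12 h was lost without replicate 2 or 3 at 0 h (adjusted p = 0.0928 and 0.115) or replicate 1 or 2 at 12 h (0.132 and 0.101), and that at 72 h without replicate 2 or 3 at 0 h (0.0646 and 0.0816) or at 72 h (0.0536 and 0.0910). In crz1 cnb1 SIS1 had 162, 224 and 218 at 0 h and 148, 216 and 298 at 12 h, and the log2 changes of 0.13 ± 0.27, -0.55 ± 0.27 and -0.27 ± 0.27 were not called.

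CUR1, the sorting factor, fell at every treated time in crz1. In crz1 it had 33.6, 42.3 and 49.9 normalised CPM at 0 h, 9.36, 12.2 and 14.7 at 12 h, 10.5, 12.0 and 11.03 at 48 h, and 12.0, 9.94 and 7.64 at 72 h. In crz1 cnb1 it had 28.4, 49.0 and 45.1 at 0 h, 21.99, 28.0 and 32.8 at 12 h, 13.97, 21.0 and 17.4 at 48 h, and 15.9, 17.9 and 13.03 at 72 h. Libraries at 0 h lay above all treated ones in both strains, except that crz1 cnb1 at 0 and 12 h overlapped through replicate 1 at 0 h. CUR1 fell 3.48-fold in crz1 at 12 h (log2 change -1.80 ± 0.23, adjusted p = 5.80e-06), 3.75-fold at 48 h (-1.91 ± 0.23, 3.57e-06) and 4.25-fold at 72 h (-2.09 ± 0.23, 8.83e-07). In crz1 cnb1 it fell 2.34-fold at 48 h (-1.22 ± 0.22, 0.000431) and 2.61-fold at 72 h (-1.38 ± 0.22, 7.66e-05). These 5 calls remained when any 1 library was left out. The crz1 cnb1 value at 12 h was -0.57 ± 0.22 (adjusted p = 0.0710), and it was called without replicate 1 at 0 h (-0.77, 0.0149) or replicate 3 at 12 h (-0.73, 0.0477).

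The strains were compared at each time to ask what the loss of Cnb1 changed in cells that already lacked Crz1. At 0 h the 10 members were close, with log2 differences of crz1 from crz1 cnb1 between -0.06 and 0.40. None was called by edgeR, by DESeq2 or by limma on log2(TPM + 1), which called 0.0164, 0.0144 and 0.0164% of all genes. None had an unadjusted p below 0.05 in edgeR, as 1.63% of all genes had. At 12 h HSP82 and CUR1 were lower in crz1 than in crz1 cnb1, 2 of 10 members where 1.64% of all genes were lower and 2.09% higher. HSP82 was 2.65-fold lower (log2 difference -1.41 ± 0.30, adjusted p = 0.0132), with 57.0, 47.4 and 43.3 normalised CPM against 103, 119 and 170. CUR1 was 2.29-fold lower (-1.19 ± 0.22, 0.00559), with 9.36, 12.2 and 14.7 against 21.99, 28.0 and 32.8. For 6 members all 3 crz1 libraries lay below all 3 crz1 cnb1 libraries, as they did for 10.8% of all genes. Those not called at 12 h included HSC82 (-0.74 ± 0.21, adjusted p = 0.0553), SSA2 (-0.79 ± 0.24, 0.0639) and SIS1 (-0.79 ± 0.27, 0.104).

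The replicate numbers paired the libraries at 12 h, and with the number as a block 4 members were called lower in crz1, where 3.38% of all genes were. They were HSP82 (log2 difference -1.43, adjusted p = 0.00956), HSC82 (-0.76, 0.00290), SSA2 (-0.80, 0.0107) and CUR1 (-1.20, 0.00157). The HSP82 call without the block was lost without crz1 replicate 2 or 3 (adjusted p = 0.0735 and 0.109) or crz1 cnb1 replicate 3 (0.0904), and HSC82 was called without crz1 replicate 1 (-0.91, 0.0253). A fit of the 12 h libraries alone ended both calls (adjusted p = 0.0682 for HSP82 and 0.0777 for CUR1). The summed pair of HSP82 and HSC82 was lower in crz1 at 12 h (-0.78 ± 0.21, adjusted p = 0.0423), and the summed SSA1 and SSA2 pair was not called (-0.71 ± 0.24, 0.101).

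At 48 h no member was called between the strains by edgeR, which called 5.12% of all genes. An unadjusted p below 0.05 was reached by 4 members and by 23.5% of all genes. DESeq2 called 2 members lower, HSP82 and HSC82, and 9.19% of all genes in either direction. Limma on log2(TPM + 1) called HSP82, HSC82 and CUR1 lower, and 8.54% of all genes. HSP82 had 94.2, 37.8 and 29.4 normalised CPM in crz1 and 125, 83.2 and 95.1 in crz1 cnb1 (log2 difference -0.91 ± 0.29, adjusted p = 0.0702). The overlap came from crz1 replicate 1, one of the 3 libraries that stood apart. Without crz1 replicate 1, 6 members were lower in crz1: HSP82 (-1.59, adjusted p = 8.87e-05), HSC82 (-1.05, 0.000562), SSA1 (-0.77, 0.00652), SSA2 (-0.80, 0.00533), SSA4 (-0.44, 0.0470) and SIS1 (-1.09, 0.00230). In that fit 13.7% of all genes were lower. That fit kept crz1 cnb1 replicate 1 at 48 h, as did the next one. For these 6 genes crz1 cnb1 replicate 1 was the highest of its group, at 125, 1389, 1052, 1743, 24.3 and 151 normalised CPM. With all 3 libraries left out 8 members were lower, HSP104 (-1.04, 0.0123) and CUR1 (-0.62, 0.0342) having joined. The share of all genes called lower was then 17.1%, against 2.07% with all libraries.

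At 72 h no member was called by edgeR or by DESeq2, which called 6.16 and 8.84% of all genes. In edgeR 1 member, CUR1, had an unadjusted p below 0.05, as had 21.3% of all genes. The values nearest to a call were those of CUR1 (log2 difference -0.66 ± 0.23, adjusted p = 0.0882), HSC82 (-0.41 ± 0.21, 0.280) and HSP82 (-0.53 ± 0.29, 0.311). CUR1 was called lower by limma on log2(TPM + 1) (adjusted p = 0.0410, with 5.14% of all genes called) and by edgeR with the replicate number as a block (0.0441, with 4.83% of all genes lower), although the numbers did not pair the libraries at 72 h. An edgeR fit of the 72 h libraries alone called CUR1 (0.0318), HSP82 (0.0102) and SIS1 (0.0379) lower, as it did 7.32% of all genes. HSP26, which rose in both strains, differed by -0.32 ± 0.39, and SSA1 by 0.09 ± 0.27.

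**Figure D4:**
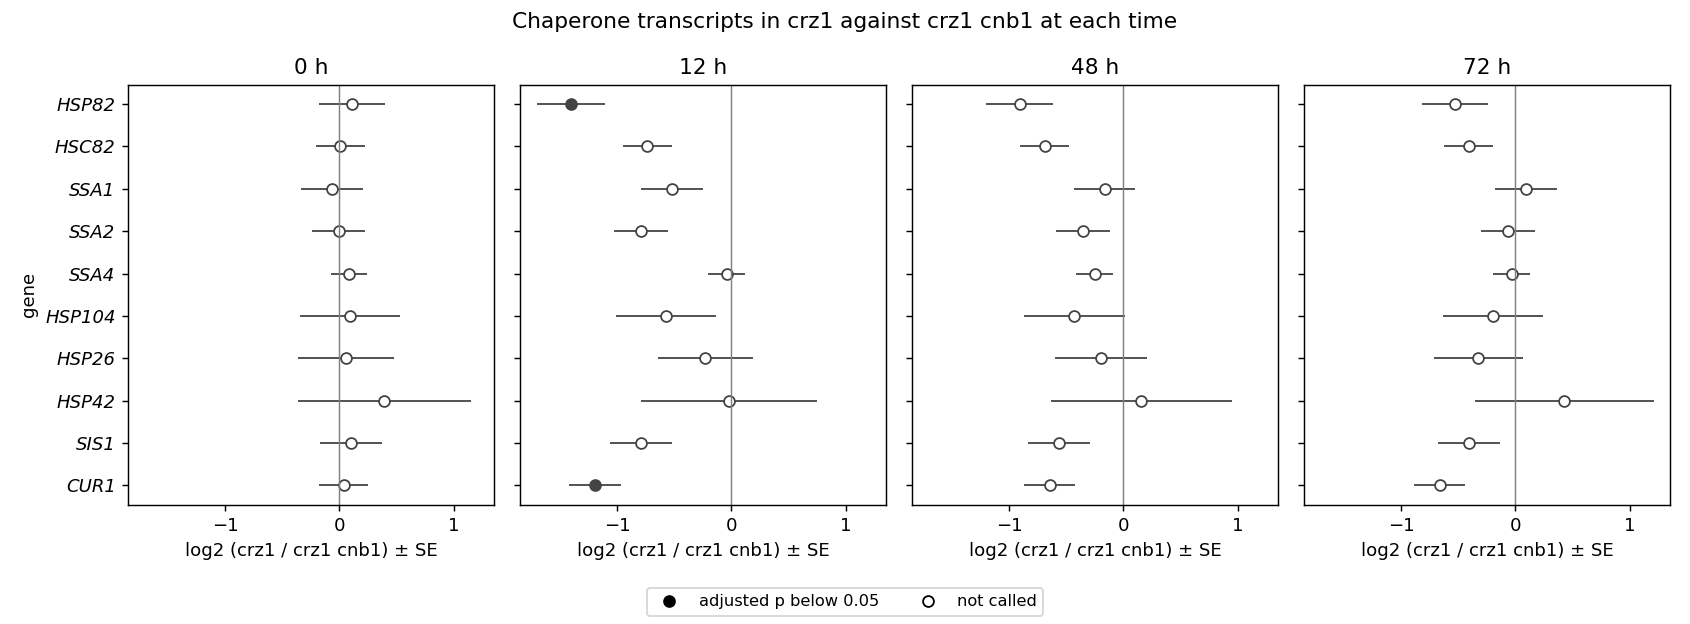
Log2 ratio of crz1 to crz1 cnb1 (horizontal axis, ± SE) for each chaperone gene at 0, 12, 48 and 72 h; filled points passed an adjusted p below 0.05. HSP82 and CUR1 at 12 h are the filled points, at -1.41 and -1.19, and the 0 h points lie near 0.

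Whether the response itself differed between the strains was tested by the difference of the changes from 0 h. With all libraries no member was called by edgeR at 12, 48 or 72 h or in a joint test over the 3 times, where 0.0493, 0.427, 0.591 and 0.361% of all genes were called. At an unadjusted p below 0.05 stood 5, 3, 1 and 2 members, and 9.56, 15.2, 13.9 and 11.3% of all genes. DESeq2 called CUR1 at 12 h (adjusted p = 0.0433) and no other member in these 4 tests, where it called 0.448, 1.67 and 2.96% of all genes at the 3 times and 125 of 6255 genes in the joint test. Limma on log2(TPM + 1) called no member and 0.0164, 1.35, 1.15 and 0.493% of all genes. The difference at 12 h was -1.52 ± 0.41 for HSP82 (log2, adjusted p = 0.219) and -1.23 ± 0.31 for CUR1 (0.199). It was -0.89 ± 0.38 for SIS1, -0.78 ± 0.33 for SSA2 and -0.75 ± 0.30 for HSC82. Without crz1 replicate 1 at 48 h, the 48 h test called HSP82 (-1.70, adjusted p = 0.00177), HSC82 (-1.06, 0.00886), SSA2 (-0.79, 0.0450) and SIS1 (-1.19, 0.0151), all lower, as were 6.22% of all genes. The joint test then called HSP82 (0.00364), HSC82 (0.0371) and SSA2 (0.0491), and 8.21% of all genes. Both tests kept crz1 cnb1 replicate 1 at 48 h. By edgeR or limma on all 24 libraries, calls within crz1 and not within crz1 cnb1 are therefore not shown to differ between strains. DESeq2 called a difference for 1 of them, CUR1 at 12 h.

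Other chaperone genes were counted in 7 lists, for which the share of all genes called is the one given above for each comparison. At 72 h it was 22.6% higher and 19.8% lower in crz1, and 20.1% higher and 15.7% lower in crz1 cnb1. No list was tested as a set, and a count near these shares is not a result about its list. For the difference of the changes from 0 h between the strains, edgeR called no gene of any list. This held at 12, 48 and 72 h and in the joint test, where few of all genes were called, as given above. A list gene called within 1 strain only is therefore not shown to respond differently between the strains. Of 12 Hsp90 co-chaperone genes, 1 was higher and 2 were lower at 72 h in crz1, and the same numbers held in crz1 cnb1. CDC37, which brings kinases to Hsp90, was lower in crz1 at 12, 48 and 72 h (log2 change -0.57 ± 0.14, -0.56 ± 0.14 and -0.59 ± 0.14, adjusted p = 0.00297, 0.0036 and 0.0017). In crz1 cnb1 its values were -0.05 ± 0.14, 0.15 ± 0.14 and 0.06 ± 0.14, and CDC37 was lower in crz1 than in crz1 cnb1 at 48 h (-0.54 ± 0.14, 0.027) and 72 h (-0.49 ± 0.14, 0.037). CPR7, a cyclophilin that binds Hsp90, fell at 72 h in both strains (-0.39 ± 0.11 and -0.55 ± 0.11, 0.0063 and 0.0005).

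Among 17 other cytosolic Hsp70, Hsp110 and J protein genes, crz1 at 72 h had 3 higher and 3 lower, and crz1 cnb1 had 2 higher and 1 lower. SSE2, an Hsp110 exchange factor for Hsp70, rose in both (log2 change 0.76 ± 0.23 and 0.88 ± 0.23, adjusted p = 0.011 and 0.0058). SWA2, a J protein that uncoats clathrin vesicles, rose as well (0.71 ± 0.15 and 0.90 ± 0.15, 0.00078 and 0.00011). FES1, another Hsp70 exchange factor, fell in crz1 (-0.49 ± 0.14, 0.0088) and had -0.16 ± 0.14 in crz1 cnb1. Among 14 genes of the CCT chaperonin and prefoldin, crz1 at 72 h had 2 higher and 5 lower, and crz1 cnb1 had 3 higher and 2 lower. CCT6 rose (0.50 ± 0.17 and 0.53 ± 0.17, 0.021 and 0.018), and the prefoldin gene GIM5 fell (-0.75 ± 0.15 and -0.63 ± 0.15, 0.0005 and 0.0029).

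The list of heat shock regulators and sorting factors, with 8 genes, had 4 higher and 3 lower at 72 h in crz1 and 4 higher and 2 lower in crz1 cnb1. HSF1, the regulator itself, rose at 12, 48 and 72 h in crz1 (log2 change 0.52 ± 0.17, 0.57 ± 0.17 and 0.77 ± 0.17, adjusted p = 0.028, 0.016 and 0.0014) and in crz1 cnb1 (0.60 ± 0.17, 0.73 ± 0.17 and 1.13 ± 0.18, 0.02, 0.0047 and 5.0e-05). HSP12, a membrane-binding stress protein also counted among the general stress genes, rose at 72 h (2.83 ± 0.59 and 2.19 ± 0.57, 0.001 and 0.0069), and so did HSP31, a glyoxalase and chaperone (1.18 ± 0.16 and 1.37 ± 0.16, 1.2e-05 and 3.1e-06). ROQ1, which redirects the ubiquitin ligase Ubr1 to misfolded proteins, fell at 72 h (-2.15 ± 0.46 and -1.23 ± 0.44, 0.00092 and 0.036).

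BTN2, the paralog of CUR1, was the gene with the profile closest to that of CUR1. Likeness was measured as the root mean square difference of group-mean log2 CPM over the 8 groups, each gene centred on its own mean, and was 0.18 for BTN2 where CUR1 itself varied by 0.77 around its mean. BTN2 had 39.6 ± 10.7 normalised CPM in crz1 at 0 h (SD, n = 3), 9.89 ± 0.821 at 12 h, 7.76 ± 3.15 at 48 h and 9.50 ± 1.33 at 72 h. In crz1 cnb1 it had 33.2 ± 11.3, 20.7 ± 6.03, 12.9 ± 1.95 and 11.3 ± 1.64. BTN2 fell in crz1 at 12 h (log2 change -2.00 ± 0.28, adjusted p = 2.2e-05) and 72 h (-2.06 ± 0.29, 1.3e-05), and in crz1 cnb1 at 72 h (-1.55 ± 0.28, 0.00026). At 48 h the BTN2 libraries also lay below those at 0 h in both strains. In crz1 they had 5.20 to 11.3 normalised CPM against 27.7 to 48.1. The crz1 cnb1 libraries had 11.4 to 15.1 against 20.3 to 41.5. The crz1 cnb1 change of BTN2 at 12 h was -0.68 ± 0.27 (0.081). At 12 h it was lower in crz1 than in crz1 cnb1 (-1.06 ± 0.28, 0.039), and at 72 h the strains differed by -0.25 ± 0.28 (0.64).

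Chaperones of other compartments gave other counts. Of 9 mitochondrial chaperone genes, 1 was lower and none higher at 72 h in crz1, and 3 were higher in crz1 cnb1. HSP60, the mitochondrial chaperonin, had a log2 change of 0.22 ± 0.24 in crz1 and rose in crz1 cnb1 (0.91 ± 0.25, adjusted p = 0.0067). Its partner HSP10 was lower in crz1 than in crz1 cnb1 at 12 h (-0.68 ± 0.15, 0.019) and 72 h (-0.55 ± 0.15, 0.034). MGE1, the exchange factor of mitochondrial Hsp70, fell in crz1 at 72 h (-0.95 ± 0.15, 4.5e-05). Of 10 ER chaperone genes, 4 were higher at 72 h in crz1, and 4 were higher and 1 lower in crz1 cnb1. PDI1, the disulfide isomerase, rose in both (1.08 ± 0.13 and 0.95 ± 0.13, 1.9e-06 and 9.9e-06), and so did CNE1, yeast calnexin (0.60 ± 0.09 and 0.29 ± 0.09, 2.4e-05 and 0.013).

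Of 12 general stress genes of the Msn2 and Msn4 type, 5 were higher at 72 h in crz1, and 3 were higher and 2 lower in crz1 cnb1. TFS1, a carboxypeptidase Y inhibitor, rose in both strains (log2 change 1.99 ± 0.18 and 1.56 ± 0.18, adjusted p = 8.2e-08 and 2.1e-06) and was higher in crz1 than in crz1 cnb1 at 72 h (0.82 ± 0.18, 0.0068). XBP1, a repressor made under stress, rose in both (1.73 ± 0.57 and 1.88 ± 0.57, 0.019 and 0.016). Between the strains at 72 h, 1 of these genes was higher and none lower, and the 4 lists of cytosolic chaperones and regulators together held 1 call, CDC37.

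Within the set, HSP104 and SIS1 had the most alike profiles over the 8 groups, with a root mean square difference of 0.13 on the log2 scale, and HSP26 and HSP42 the least alike, at 1.54. Among genes outside the set, HSC82 was closest to HIS4 (0.09), SSA4 to YKL107W (0.09), SSA2 to FUN12 (0.12), SSA1 to CYC8 (0.13) and HSP82 to TOM70 (0.19). SSE2 was also among the 3 genes closest to SSA1, at 0.14. HSP104 and SIS1 shared GCR1 as their closest gene (0.14 and 0.16), HSP42 was closest to CCP1 (0.23) and HSP26 to LAS17 (0.27). Around their own means SSA4, HSC82, SSA2, SSA1 and HSP82 varied by 0.26, 0.32, 0.36, 0.42 and 0.54. HSP104, SIS1, HSP26 and HSP42 varied by 0.42, 0.43, 0.81 and 0.86. A gene that varies little has small differences, so these values do not rank the matches, and none was tested. The ratio of the highest to the lowest group mean was 7.48 for HSP42, 5.43 for HSP26, 4.25 for CUR1, between 1.85 and 2.65 for 6 other members and 1.54 for SSA4, beside 1.63 at the median of all genes tested. Replicates of HSP42 and HSP104 also spread more, with a median coefficient of variation within groups of 40.4 and 36.5%, against 10.5% over all genes.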

How the data were processed

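Raw read counts per gene were deposited by the authors, made with featureCounts against build R64 per the submitters' processing notes, which also name DESeq2. The authors also deposited TPM values. Tool versions, strandedness and the handling of reads that fit several genes are not stated there. Members, the 7 gene lists and the alternatives were chosen with earlier results of these data known, and all 10 members are named. From each list, genes with the 3 smallest p-values at 72 h in each strain or between the strains could be named.

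Counts were fitted with edgeR 4.0.16 under R 4.3.3, with TMM normalisation, filterByExpr by group, and a robust quasi-likelihood fit of all 24 libraries with 1 coefficient per group. Normalised CPM use TMM library sizes, and the standard error of a log2 change comes from its F statistic. P-values were adjusted over 6089 genes. The procedure was run on simulated counts, drawn independently for each library, with 200 genes changed. Those counts held no structure by replicate number, so the run gives no error rate for data such as these. Nothing in the labels says more than that time courses were triplicate, so p-values measure the spread between these libraries.

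Libraries with the same number were taken as pairs where their deviations from the group means correlated above 0.1 for every number. This held for crz1 at 12 h against 0 h (lowest 0.11) and for the strains at 0 h (0.56) and 12 h (0.17), by the data and not by a label. The strains at 48 h narrowly missed the limit through replicate 3 (0.0954, beside 0.66 and 0.51 for replicates 1 and 2). Alternatives were RLE size factors, no filter, the replicate block, only the groups compared, DESeq2 1.42.0, limma 3.58.1 on log2(TPM + 1) and log2(TPM + 0.1), summed paralogs, and each library left out. The share of genes that DESeq2 called is over genes to which it gave an adjusted p. Leaving out the 3 libraries that stood apart was added after seeing the data. Sequences are from RefSeq R64, read with Python 3.11.15, and figures were drawn with matplotlib 3.10.9.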

Additional observations from a re-analysis of the deposited data

How the results depend on the processing

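Over 2646 values of single members under an alternative, 2477 stayed on their side of the threshold, 80 were no longer called and 89 were newly called. Of values called with or without the alternative, 0 turned direction, and 108 values called in neither had the other sign. The share of all genes called moved with the setting too. For the strains at 48 h it was 5.12% in the main fit, 9.19% with DESeq2 and 8.54% with limma on log2(TPM + 1). The share called lower there was 2.07% and, without the 3 libraries that stood apart, 17.1%. A rise or fall in a count below is therefore not by itself a result about the members. Most counts below are given without the share of all genes under their setting, so they cannot be set against it. Counts of called members, given as main value then alternative, moved by over 1.5 times in these cases. Without the 3 libraries that stood apart, crz1 cnb1 at 12 h went from 1 to 4, crz1 cnb1 at 48 h from 2 to 4, the strains at 48 h from 0 to 8, the change to 48 h between strains from 0 to 4 and the joint test from 0 to 3. With DESeq2, crz1 cnb1 at 12 h went from 1 to 3, the strains at 12 h from 2 to 4, the strains at 48 h from 0 to 2 and the change to 12 h between strains from 0 to 1. With limma at either pseudocount, crz1 cnb1 at 12 h went from 1 to 0, at 48 h from 2 to 1 and from 12 to 72 h from 2 to 1, and the strains at 48 h went from 0 to 3 and at 72 h from 0 to 1. With only the compared groups fitted, crz1 at 48 h went from 7 to 2, crz1 cnb1 at 12 h from 1 to 3, at 48 h from 2 to 4 and from 12 to 72 h from 2 to 4, and the strains at 12 h from 2 to 0 and at 72 h from 0 to 3. That alternative has no joint test of its own. The cause was not tested. With the replicate number as a block, the strains at 12 h, which the numbers paired, went from 2 to 4. Where the numbers did not pair the libraries, the block took crz1 cnb1 at 12 h from 1 to 4. It took crz1 from 12 to 72 h from 1 to 2, and the strains at 72 h from 0 to 1. The strains at 48 h went from 0 to 3 (HSP82, HSC82 and CUR1). They missed the pairing limit of 0.1 narrowly, at 0.0954 for replicate 3. In the paired comparisons the block changed no call beyond HSC82 in crz1 at 12 h and HSC82 and SSA2 between the strains at 12 h. With each library left out in turn, calls ranged from 3 to 5, 4 to 8 and 3 to 7 in crz1 at 12, 48 and 72 h, from 0 to 2, 1 to 2 and 2 to 4 in crz1 cnb1, and from 0 to 1 and 0 to 2 from 12 to 72 h. Between the strains they ranged from 1 to 3 at 12 h and 0 to 6 at 48 h, and were 0 at 0 and 72 h. For the change between strains they were 0 at 12 and 72 h, 0 to 4 at 48 h and 0 to 3 in the joint test, the high values coming without crz1 replicate 1 at 48 h. On the TPM scale the median of all genes shifted by -0.16 and -0.25 in crz1 at 12 and 48 h, by -0.26 and -0.12 between the strains at 48 and 72 h, by 0.15 from 12 to 72 h in crz1 cnb1, and by -0.29 and -0.15 for the change between strains at 48 and 72 h. No untreated library of the later times and no strain with CRZ1 was used here.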
